A study of Saccharomyces cerevisiae with 12 samples.

Results

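Loss of mitochondrial DNA (mtDNA) was examined during fermentative growth by comparing 3 arrays of ρ0 yeast cells, which lack mtDNA, with 3 arrays of ρ+ cells, which carry it, all from medium with glucose. These are 6 of the 12 arrays of the study; the comparison was chosen by its sample titles, and all probe sets of the deposited table entered it. The organism was the budding yeast Saccharomyces cerevisiae. ρ0 cells and ρ+ cells in 2% glucose, kept at 22 °C in CM medium up to early log phase, each gave 3 biological replicates. The other 6 arrays held ρ0 cells and ρ+ cells from the same master cultures after a wash and 4 h of shaking without glucose. They entered the shared estimate of the spread, the pseudocount, the detection level, the filter on low signals and the choice of probe set. Differences between ρ0 and ρ+ cells on those arrays are given only where the media are compared. The labels name neither the strain background nor the mating type. How mtDNA was removed, and whether the ρ0 replicates came from 1 isolate, is not given in the sources used here. A change caused by the loss of mtDNA and any other difference between the cell lines therefore cannot be told apart.

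Yeast can live without mtDNA as long as it ferments, since the mitochondrial genome encodes mainly core subunits of the respiratory chain and of the ATP synthase, with part of the machinery to translate them. Cells without it keep mitochondria, whose membrane potential is then built in other ways, and these still import proteins, assemble iron-sulfur clusters and make amino acids. Known responses of nuclear genes are the retrograde pathway, in which Rtg1 and Rtg3 activate genes that feed 2-oxoglutarate synthesis, the Pdr3-dependent induction of multidrug transporter genes, and the Aft1-dependent iron regulon, which responds to a shortage of iron-sulfur clusters made in mitochondria.

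Each value is a signal in arbitrary units, the brightness of a probe set after the authors' MAS5 summary. Signals were compared as log2(signal + 1.498), and a gene was tested where the mean of a group exceeded a detection level of 5.822, which left 5361 of 5656 genes. Differences are ρ0 minus ρ+, with standard errors (SE) and adjusted p-values from limma, called at 0.05, and folds are on the same scale, which understates dim genes. Because each array was scaled to a common mean, values describe shares of the RNA on an array, and fewer cells with a transcript cannot be told apart from less of it per cell. Across the 6 arrays, replicates correlated at 0.956 to 0.990 over genes, and 87.6% to 88.8% of single-gene probe sets exceeded the detection level in ρ0 cells, against 86.8% to 87.0% in ρ+ cells. The median SE of a log2 difference was 0.21.

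The array of ρ0 replicate 2 stood apart from the others in glucose in several ways. Its hybridization control CreX gave 309, against 985 and 919 on the other ρ0 arrays and 777 to 1006 on the ρ+ arrays. For SPT15, the signal of the 5′ end divided by that of the 3′ end, was 0.130 there, against 0.227 and 0.390 on the other ρ0 arrays and 0.239 to 0.368 on the ρ+ arrays, whereas the same ratio for ACT1 was the highest of the 6 there, at 0.830, against 0.641 and 0.665 on the other ρ0 arrays and 0.698 to 0.710 on the ρ+ arrays. Its signals also deviated along the numbering of the probe sets, which on this array design largely follows the chromosomes. Genes with probe sets numbered 11136 to 11425 lay at a median log2 of −0.70 from their mean over 12 arrays on that array, against 0.10 and 0.10 on the other ρ0 arrays and 0.08 to 0.15 on the ρ+ arrays. In terms of chromosomes, the median deviation of ρ0 replicate 2 was −0.71 for chromosome I and −0.57 for chromosome X, and it was 0.17 for chromosomes V and VI. The median log2 difference between ρ0 and ρ+ cells was −0.20 for the 80 genes of chromosome I and −0.06 for the 311 of chromosome X, and 0.08 to 0.25 for the other chromosomes. Of 12 genes of chromosomes I and X that were called lower, 5 were called without that array, and 5 were called after the trend along the probe set numbers had been removed from every array, an analysis chosen after the data were seen. Genes of these chromosomes are given below with and without it.

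**Figure D1:**
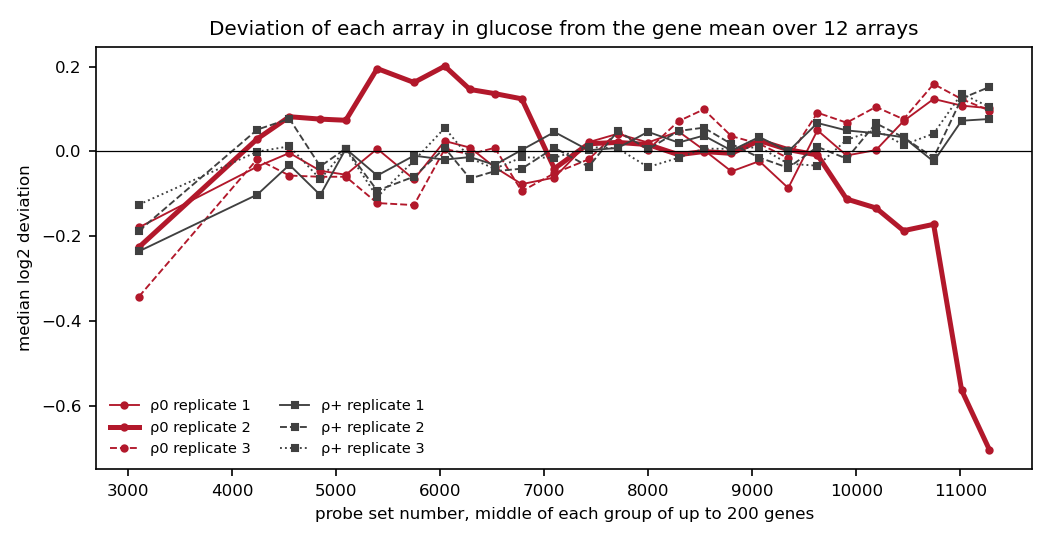
Median log2 deviation of each of the 6 arrays in glucose from the gene means over 12 arrays (vertical axis), for groups of up to 200 genes in the order of their probe set numbers (horizontal axis). ρ0 arrays are red and ρ+ arrays dark grey; ρ0 replicate 2, the thick line, falls to −0.56 and −0.70 in the last groups, where the others lie between 0.07 and 0.15.

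Transcripts of mtDNA itself served to check the labels. OLI1, the mitochondrial gene of ATP synthase subunit 9, gave 0.196, 0.435 and 0.224 in ρ0 cells, against 159, 124 and 100.3 in ρ+ cells. It was below the detection level on all ρ0 arrays and well above it on all ρ+ arrays, at least 21.6-fold lower in ρ0 cells (adjusted p = 1.2e-11). COX1, the gene of cytochrome c oxidase subunit 1, gave 1.17, 1.79 and 0.807 in ρ0 cells, against 8.40, 8.18 and 2.11 in ρ+ cells. Only 2 of these 6 signals exceeded the detection level, both in ρ+ cells, so no fold is given, and its call (adjusted p = 0.0392) was lost without ρ0 replicate 1 or 3 or ρ+ replicate 1 or 2 (adjusted p from 0.0867 to 0.163). No other gene of mtDNA among the 19 on the array passed the filter on low signals, in RNA that was selected for poly(A) tails.

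Of the 5361 genes tested, 268 (5.00%) were higher and 78 (1.45%) were lower in ρ0 cells. By at least 2-fold, 80 were higher and 31 lower. The arrays of the groups did not overlap for 343 of the 346 called genes; over all tested genes, this held for 30.7%. The median log2 difference of all genes was 0.13 on the authors' scale, 0.02 after quantile normalization, −0.03 after median centring and 0.33 after scaling to the poly-A control transcripts. The balance of the calls followed these scalings, with 138 higher and 104 lower for quantile-normalized signals, 118 and 160 for median-centred signals, and 354 and 22 with the poly-A controls. Small differences thus have no settled direction, and 107 higher and 22 lower genes were called under all 3 scalings as well as on the authors' scale. Fewer genes were called with any array but ρ0 replicate 3 left out, whose omission gave 267 higher and 82 lower: 149 higher and 48 lower without ρ0 replicate 1, 138 and 30 without ρ+ replicate 1, 116 and 27 without ρ+ replicate 2, and 122 and 34 without ρ+ replicate 3. Without ρ0 replicate 2 there were 192 and 61, and 162 of the 268 higher and 45 of the 78 lower genes were among them. Of all called genes, 85 higher and 16 lower were called in every one of 18 alternative analyses, and these include 60 of the 109 called genes that are named in the text.

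**Figure D2:**
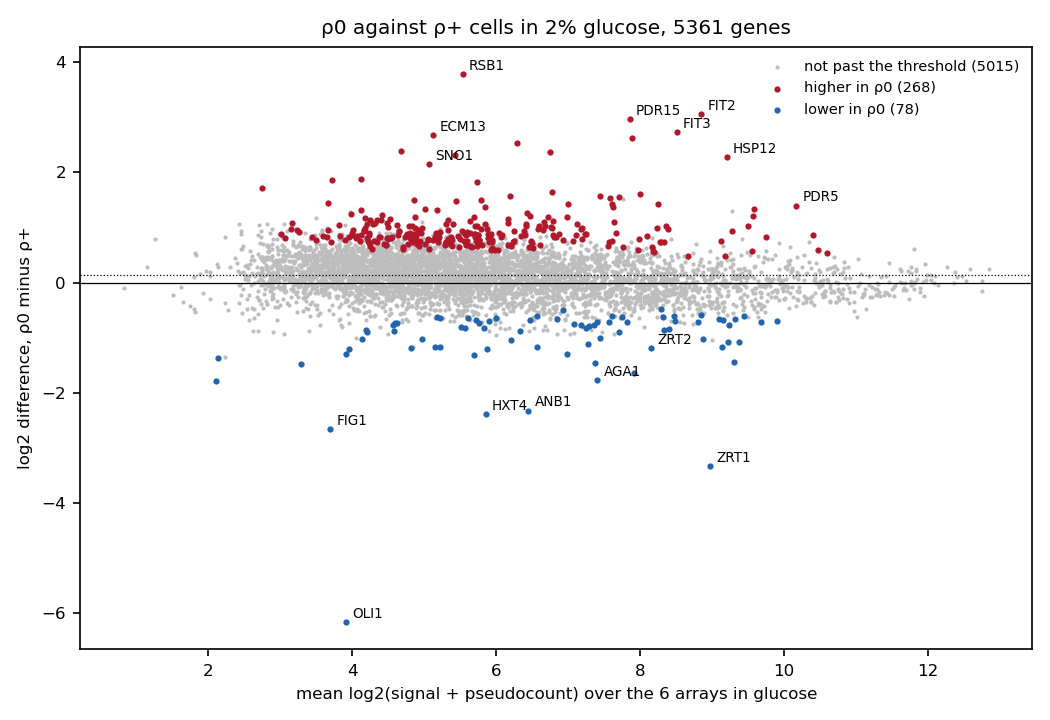
Log2 difference between ρ0 and ρ+ cells in 2% glucose (vertical axis) against the mean log2 signal over the 6 arrays (horizontal axis), 1 point per tested gene. Red points are the 268 genes called higher, blue points the 78 called lower, and the dotted line is the median of all genes, 0.13; the largest increase is that of RSB1 at 3.78, and the lowest point is OLI1, whose position depends on the pseudocount because its ρ0 signals lie below the detection level.

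Most genes of pleiotropic drug resistance were higher in ρ0 cells. The members of this and the other lists were chosen with earlier results of these data known, so shares of lists are descriptions only. Of the 14 tested members of this list, 10 were called higher (71.4%, against 5.00% of all genes) and none lower, all 14 had a positive difference, and the median was 1.25, against 0.13 for all genes. The count was 10 without each single array and under each of the 3 scalings, and 8 when all probe sets of a gene were averaged, where PDR5 and YOR1, each with 7 probe sets, were not called (adjusted p = 0.0720 and 0.378). RSB1, which encodes a transporter of sphingoid long-chain bases, gave 154, 206 and 156 in ρ0 cells, against 9.80, 12.4 and 11.1 in ρ+ cells. This was the largest increase of any gene, 13.7-fold (log2 3.78 ± 0.32 SE, adjusted p = 3.3e-06), with each ρ0 array more than 10-fold above each ρ+ array. PDR3, the gene of a transcription factor that activates this group and its own gene, gave 101, 143 and 66.8 in ρ0 cells, against 24.97, 30.5 and 25.6 in ρ+ cells, with no overlap (log2 1.82 ± 0.23 SE, adjusted p = 0.000190). PDR1, which encodes the related factor, gave 67.8, 57.0 and 66.0 in ρ0 cells, against 44.3, 47.8 and 47.8 in ρ+ cells, a log2 difference of 0.43 that did not pass (adjusted p = 0.192).

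Among the ATP-binding cassette transporters of the group, PDR15 gave 763, 974 and 367 in ρ0 cells, against 102, 90.7 and 58.7 in ρ+ cells. It differed most among these pumps (7.82-fold, adjusted p = 4.8e-05), although its ρ0 arrays spread widely. PDR5, for the best known of the drug pumps, gave 2181, 1453 and 2082 in ρ0 cells, against 731, 778 and 633 in ρ+ cells (log2 1.40, adjusted p = 8.7e-05). The pump genes SNQ2 and YOR1 were higher by log2 1.43 and 1.11, and all their ρ0 arrays lay above all ρ+ arrays. PDR10, another pump gene, had a log2 difference of 0.38 (adjusted p = 0.367), and the polyamine exporter gene TPO1 one of 0.25 (adjusted p = 0.440). The lipid-related members were PDR16, a phosphatidylinositol transfer protein gene, higher by 1.61, and ICT1, a lysophosphatidic acid acyltransferase gene, higher by 1.06; IPT1, for sphingolipid synthesis, had 0.46 (adjusted p = 0.230). CIS1, whose product acts with Msp1 to clear proteins stalled during mitochondrial import, gave 172, 142 and 269 in ρ0 cells, against 25.7, 35.4 and 32.6 in ρ+ cells, a 5.81-fold increase (adjusted p = 1.4e-05). GRE2, a methylglyoxal reductase gene, was higher by log2 1.09 (adjusted p = 0.000682).

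Many genes of the iron regulon, the genes of iron uptake and saving that Aft1 and Aft2 activate, were also higher in ρ0 cells. Of 24 tested members, 12 were called higher (50.0%, against 5.00% of all genes) and none lower. The median log2 was 0.83, against 0.13 for all genes. The count of called members lay between 11 and 13 with 1 array left out and was 13 without ρ0 replicate 2. FIT2, which encodes a cell wall mannoprotein that retains siderophore-bound iron, gave 1616, 1763 and 840.1 in ρ0 cells, against 157, 135 and 189 in ρ+ cells. All ρ0 arrays exceeded all ρ+ arrays, the lowest being replicate 3, and the increase was 8.37-fold (log2 3.06 ± 0.26 SE, adjusted p = 3.3e-06). FIT3, the next protein-coding gene beside FIT2 in assembly R64 and a gene of the same kind, gave 1188, 1532 and 456 in ρ0 cells, against 143, 133 and 146 in ρ+ cells (adjusted p = 0.000397), with replicate 3 again lowest. FIT1 was dim, at 19.6 ± 6.79 in ρ0 cells and 8.49 ± 2.29 in ρ+ cells (SD, n = 3 each), and its call (log2 1.05, adjusted p = 0.0202) was lost without ρ0 replicate 1 or 2 or ρ+ replicate 1 or 3 (adjusted p from 0.0668 to 0.0937).

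All 4 siderophore transporter genes on the list were called higher. ARN2 gave 547, 943 and 391 in ρ0 cells, against 89.0, 81.0 and 114 in ρ+ cells, a 6.17-fold increase (adjusted p = 6.9e-05). ARN1 gave 355, 357 and 277 in ρ0 cells, against 97.8, 116 and 122 in ρ+ cells (log2 1.54, adjusted p = 0.000318), and no ρ0 array was as dim as any ρ+ array. SIT1 and ENB1 were higher by log2 0.99 and 1.03. Of the reductase genes, FRE2 was higher by 1.13 and FRE3 by 1.24. CCC2, whose copper-transporting ATPase loads the ferroxidase Fet3 with copper, was higher by 1.58 (adjusted p = 0.00160). TIS11, for an RNA-binding protein that lowers transcripts of iron-using proteins, was higher by 1.37 and the heme oxygenase gene HMX1 by 1.05.

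The ferroxidase and permease genes of reductive iron uptake did not pass the test. The ferroxidase gene FET3 gave 1336, 1582 and 867 in ρ0 cells, against 1007, 866 and 928 in ρ+ cells. The groups overlapped (log2 0.39, adjusted p = 0.275). Its partner, the permease gene FTR1, gave 226, 244 and 167 in ρ0 cells, against 109.5, 134 and 152 in ρ+ cells, without overlap (log2 0.67, adjusted p = 0.0822). None of the 18 tested genes of mitochondrial iron-sulfur cluster assembly was called by limma, and their median was 0.09; 2 had an unadjusted p under 0.05, which held for 24% of all tested genes.

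**Figure D3:**
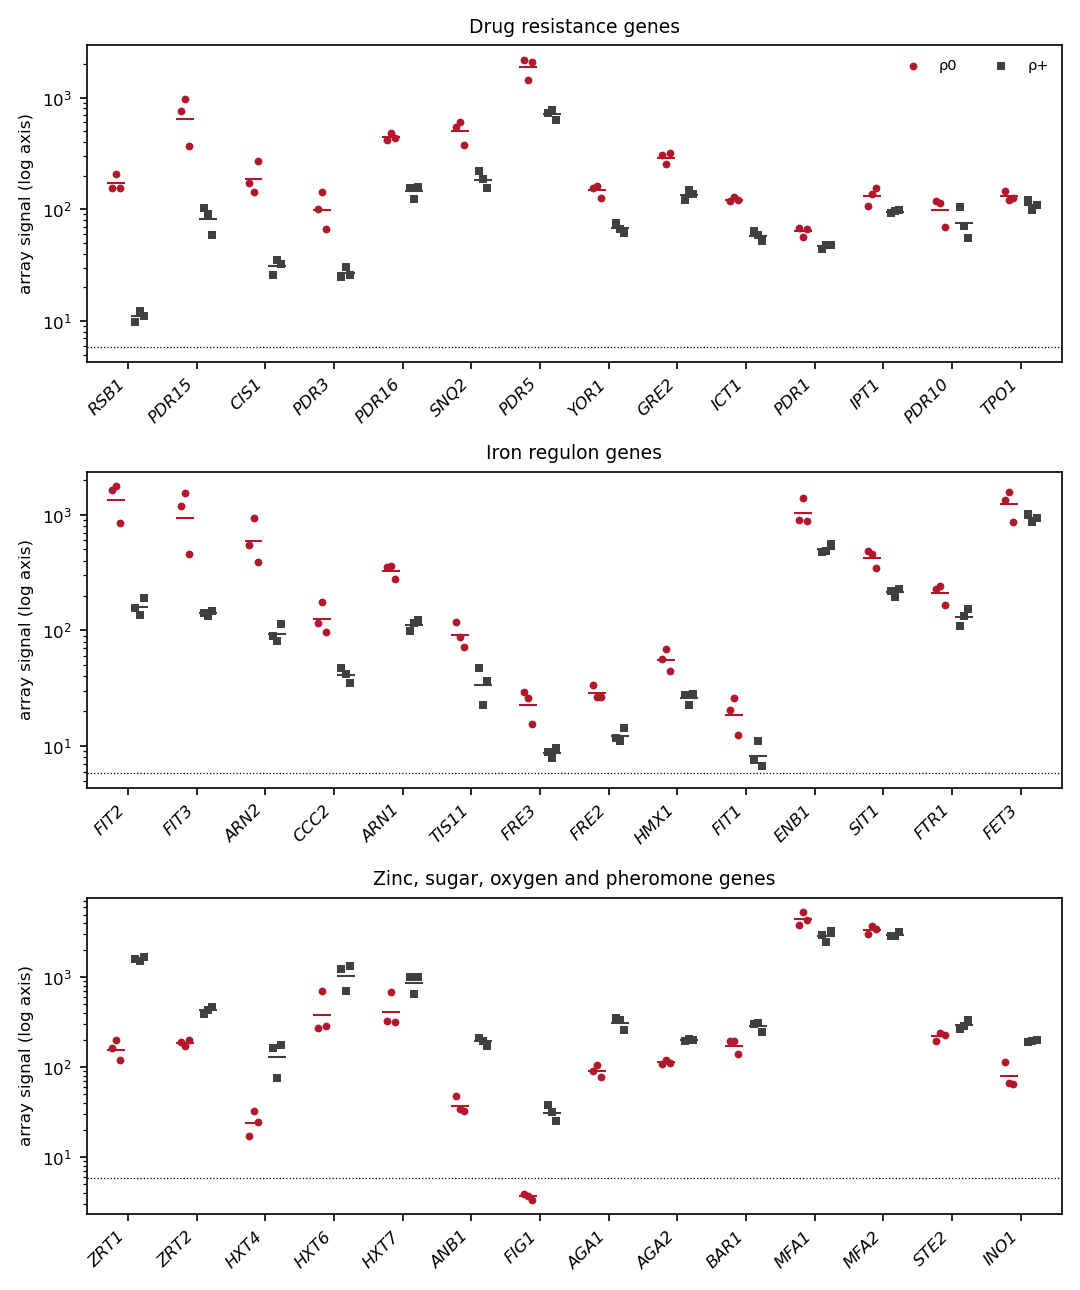
Array signals (log axis, arbitrary units) of the drug resistance genes, of 14 iron regulon genes, and of genes for zinc and sugar uptake, an oxygen-regulated gene, pheromone genes and INO1. Red circles are the 3 ρ0 arrays and dark squares the 3 ρ+ arrays in 2% glucose, short lines are geometric means and the dotted line is the detection level of 5.822; RSB1, FIT2 and ZRT1 show the widest gaps, and HXT6 and HXT7 overlap.

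Of the 8 tested targets of the retrograde pathway, 2 were called higher (25%, against 5.00% of all genes), 7 had a positive difference, and the median was 0.48. At an unadjusted p under 0.05 there were 4 (50.0%, against 24% of all genes). The count of called targets was 0 to 3 with 1 array left out, and none of the 8 tested regulators of the pathway was called by limma (2 at an unadjusted p under 0.05). CIT2, the peroxisomal citrate synthase gene that serves as the usual reporter of the pathway, gave 769, 615 and 654 in ρ0 cells, against 693, 598 and 608 in ρ+ cells. The groups overlapped and the difference was 0.10 ± 0.25 SE (adjusted p = 0.852). DLD3, a further target, gave 148, 162 and 159 in ρ0 cells, against 214, 179 and 172 in ρ+ cells, with the ρ+ arrays the brighter ones (log2 −0.26, adjusted p = 0.548). The called members were IDH2, the gene of a subunit of isocitrate dehydrogenase, with 1561, 1956 and 1741 in ρ0 cells, against 1133, 1101 and 1250.3 in ρ+ cells (log2 0.59, adjusted p = 0.0124), and PDH1, for the use of propionate, with 28.3, 18.2 and 36.5 in ρ0 cells, against 9.34, 12.7 and 11.996 in ρ+ cells (log2 1.14, adjusted p = 0.0259). Both calls depended on single arrays: IDH2 was no longer called without ρ+ replicate 1 or 2 (adjusted p from 0.0502 to 0.0650), and PDH1 without ρ0 replicate 1 or 3 or ρ+ replicate 1, 2 or 3 (adjusted p from 0.0638 to 0.0994). IDH1, the other subunit, had 0.82 (adjusted p = 0.0554) and 1.10 without ρ0 replicate 2 (adjusted p = 0.00875), so that 3 targets were called without that array. The aconitase gene ACO1, the citrate synthase gene CIT1 and the pyruvate carboxylase gene PYC1 had 0.38, 0.14 and 0.70, none of them past the threshold.

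Of the nuclear genes of the respiratory chain itself, a single one was called in glucose. Of 27 tested genes of complexes II to IV, cytochrome c and the NADH dehydrogenases, 1 was called higher (3.70%, against 5.00% of all genes). Their median was 0.12, against 0.13 for all genes, and 6 had an unadjusted p under 0.05 (22.2%, against 24% of all genes). None of 17 genes of the ATP synthase and its inhibitors and none of 11 genes of the later tricarboxylic acid cycle was called by limma. Of these, 5 (29.4%) and 2 (18.2%) had an unadjusted p under 0.05. The called gene was NDE1, for the NADH dehydrogenase on the outer face of the inner membrane. NDE1 gave 1136, 1461 and 939 in ρ0 cells, against 663, 420.4 and 456 in ρ+ cells, with no overlap (log2 1.20 ± 0.19 SE, adjusted p = 0.00160). CYB2 and GUT2, for mitochondrial lactate and glycerol-3-phosphate dehydrogenases, were higher by 1.06 and 1.22 (adjusted p = 0.00819 and 0.0330). Both lost the call in places, CYB2 without ρ+ replicate 2 (adjusted p = 0.0540) and GUT2 without ρ0 replicate 1 or 3 or ρ+ replicate 1, 2 or 3 (adjusted p from 0.0542 to 0.115).

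Some genes that serve the building of the respiratory complexes were higher. Of 33 tested assembly genes, 9 (27.3%, against 5.00% of all genes) were called higher and none lower. The median was 0.42, against 0.13 for all genes. With 1 array left out 4 to 7 were called, 6 without ρ0 replicate 2, and after median centring 5. PET100, a cytochrome oxidase assembly factor gene, gave 141, 162 and 155 in ρ0 cells, against 82.1, 69.6 and 73.5 in ρ+ cells (adjusted p = 0.00544). PET191 of chromosome X, for another such factor, gave 109, 112 and 121 in ρ0 cells, against 45.1, 66.9 and 67.6 in ρ+ cells, and its log2 difference was 0.94 with all arrays and 0.95 without ρ0 replicate 2 (adjusted p = 0.00748 and 0.0169). For both genes every ρ0 array lay above every ρ+ array. PET117, COX17 for the copper chaperone, and ATP23 for a protease that matures an ATP synthase subunit were higher by 0.99, 0.85 and 0.94. Each of these 3 calls was lost without some single array (highest adjusted p = 0.145, 0.138 and 0.103).

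Genes for expressing and maintaining the mitochondrial genome included some that were higher. Of 69 mitochondrial ribosomal protein genes, 6 (8.70%, against 5.00% of all genes) were called higher and none lower, and 2 to 4 were called with 1 array left out. Their median was 0.39 and 65 had a positive difference; 27 (39.1%, against 24% of all genes) had an unadjusted p under 0.05. RSM28 of the small subunit gave 78.7, 70.8 and 79.8 in ρ0 cells, against 36.6, 37.7 and 40.6 in ρ+ cells (adjusted p = 0.00538), and MRPL44 of the large subunit gave 107, 105 and 111 in ρ0 cells, against 65.4, 58.7 and 53.9 in ρ+ cells (adjusted p = 0.00605). The median stayed positive after median centring, at 0.22, against −0.03 for all genes. Of 16 genes of mtDNA maintenance and transcription, 3 (18.8%, against 5.00% of all genes) were called higher. They were the RNA helicase gene SUV3 (0.87), the recombination gene MHR1 (0.72) and the transcription factor gene MTF1 (0.67). Each call was lost without some single array (highest adjusted p = 0.0861, 0.138 and 0.183). This count was 0 to 2 with 1 array left out, 1 without ρ0 replicate 2, and 0 after quantile normalization or median centring. No mitochondrial aminoacyl-tRNA synthetase gene (12 tested) or translation factor gene (21 tested) was called by limma, while 4 and 5 had an unadjusted p under 0.05.

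Import and quality control genes included a few called members. Mitochondrial import had 2 of 33 tested genes called higher (6.06%, against 5.00% of all genes), with a median of 0.21 against 0.13. Mitochondrial chaperones and proteases had 2 of 15 called higher (13.3%, against 5.00% of all genes), with a median of 0.20 against 0.13. After quantile normalization or median centring, 1 gene of each list was called higher. Of 33 import genes, TIM9, for a chaperone of the intermembrane space, was higher, with 171, 149.9 and 153 in ρ0 cells, against 90.9, 75.0 and 90.6 in ρ+ cells (log2 0.88, adjusted p = 0.00703), as was MAS1, for the processing peptidase (0.74, adjusted p = 0.0202); the MAS1 call was lost without ρ0 replicate 1 or 3 or ρ+ replicate 1 or 3 (adjusted p from 0.0583 to 0.0859). PIM1, the gene of the Lon protease of the matrix, gave 240.2, 176 and 199.97 in ρ0 cells, against 115, 113 and 101 in ρ+ cells. It was higher by 0.89 (adjusted p = 0.00757), with no overlap, and HSP78, for a matrix disaggregase, by 0.76, a call lost without ρ0 replicate 1 or 2 or ρ+ replicate 2 or 3 (adjusted p from 0.0561 to 0.0985). Of 26 carrier genes, only YHM2, for a citrate and oxoglutarate carrier, was called (3.85%, against 1.45% of all genes called lower). YHM2 was lower, at 147 ± 13.6 in ρ0 cells and 241 ± 9.01 in ρ+ cells (SD, n = 3 each, adjusted p = 0.0255). Its call was lost without ρ0 replicate 1 or 2 or ρ+ replicate 1, 2 or 3 (adjusted p from 0.0546 to 0.0859).

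**Figure D4:**
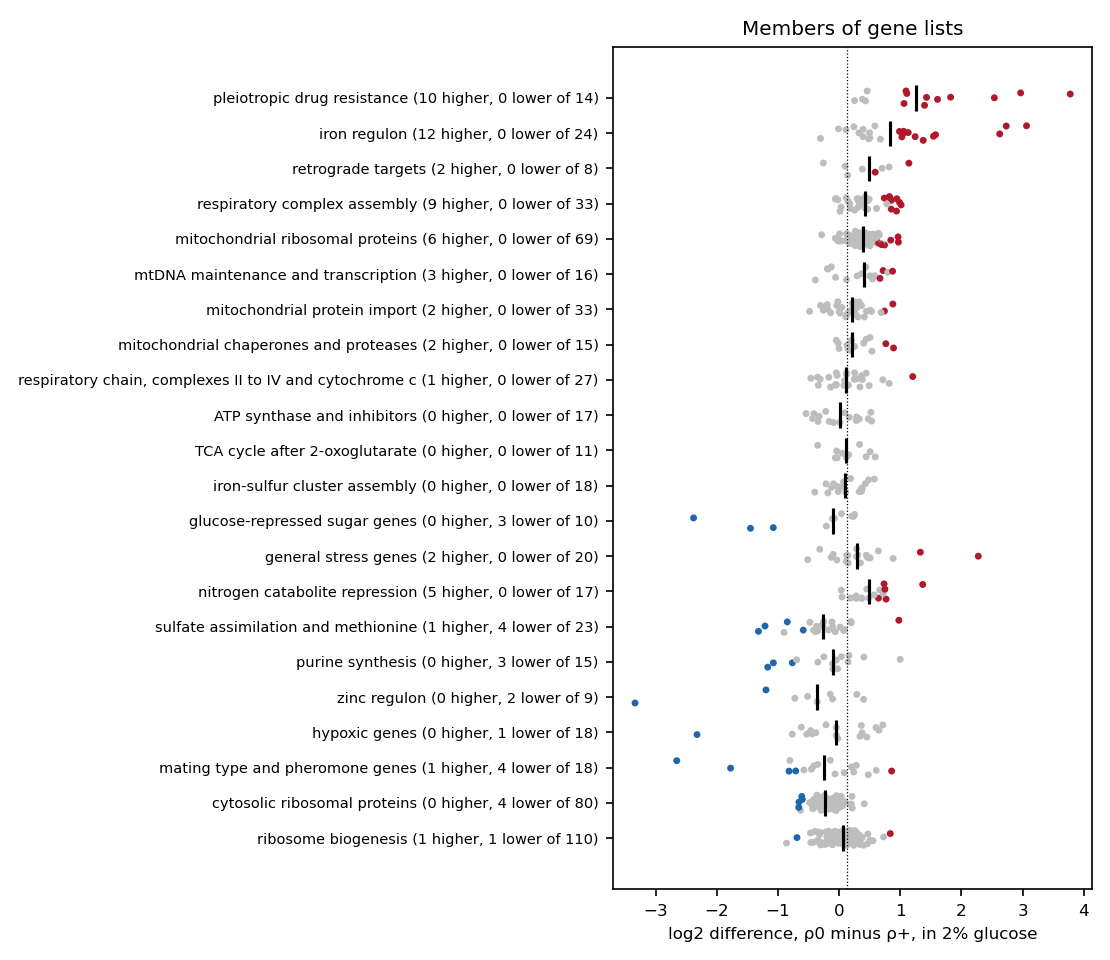
Log2 difference between ρ0 and ρ+ cells in 2% glucose (horizontal axis) for the tested members of 22 gene lists (rows), 1 point per gene. Red points were called higher, blue points lower and grey points neither, black bars are list medians, and the dotted line is the median of all genes, 0.13; 10 of 14 drug resistance genes and 12 of 24 iron regulon genes are red.

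Oxygen and heme regulation gave 1 large difference. ANB1, an eIF5A gene that Rox1 represses when oxygen and heme are present, gave 47.7, 34.3 and 32.3 in ρ0 cells, against 212, 198 and 174 in ρ+ cells. All ρ0 arrays were far below all ρ+ arrays (5.01-fold lower, log2 −2.33 ± 0.22 SE, adjusted p = 1.1e-05). ANB1 lies on chromosome X, and without ρ0 replicate 2 the difference was −2.26 (adjusted p = 3.5e-05). Of the other 17 tested hypoxic genes none was called by limma, and neither was any of 8 heme synthesis genes. With ANB1 included, 5 hypoxic genes (27.8%) and 3 heme synthesis genes (37.5%) had an unadjusted p under 0.05, against 24% of all genes. HAP3, for a subunit of the activator of respiratory genes, was called at 0.76 (adjusted p = 0.0482) but not without ρ0 replicate 1 or 3 or ρ+ replicate 1, 2 or 3 (adjusted p from 0.0729 to 0.151); HAP4, for its regulated subunit, gave 75.4, 57.9 and 95.1 in ρ0 cells, against 53.9, 41.2 and 54.7 in ρ+ cells (log2 0.58, adjusted p = 0.199).

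Among genes of sugar uptake, HXT4, which encodes a hexose transporter, was lower in ρ0 cells. HXT4 gave 17.3, 32.2 and 24.4 in ρ0 cells, against 165, 76.7 and 177 in ρ+ cells. The brightest ρ0 array was dimmer than the dimmest ρ+ array, and the difference was 5.21-fold (log2 −2.38 ± 0.32 SE, adjusted p = 0.000345). The adjacent genes HXT6 and HXT7 encode nearly identical transporters and were read by shared probe sets, which cannot separate them. HXT6 gave 274, 709 and 287 in ρ0 cells, against 1224, 706 and 1326 in ρ+ cells, and HXT7 gave 326, 683 and 315 in ρ0 cells, against 997, 660.0 and 1009 in ρ+ cells. Here ρ0 replicate 2 lay at the level of ρ+ replicate 2, so the groups overlapped; both were called (log2 −1.45 and −1.08), and without ρ0 replicate 2 the differences were −1.90 and −1.44 (adjusted p = 0.000105 and 0.000266). The HXT6 call was lost without ρ0 replicate 1 or ρ+ replicate 1 or 3 (adjusted p from 0.0542 to 0.0641), and that of HXT7 without ρ0 replicate 1 or 3 or ρ+ replicate 1 or 3 (adjusted p from 0.0570 to 0.0902). None of the other 7 tested glucose-repressed sugar genes was called by limma or had an unadjusted p under 0.05.

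Of 17 tested genes of glucose signalling and the Snf1 kinase, 2 (11.8%, against 5.00% of all genes) were called higher, with a median of 0.13, the same as for all genes. MIG2, for a repressor that acts with Mig1 in glucose, gave 38.9, 56.7 and 47.0 in ρ0 cells, against 18.3, 9.99 and 21.1 in ρ+ cells (log2 1.49, adjusted p = 0.00237). MIG3, for the related factor, gave 22.7, 31.8 and 23.2 in ρ0 cells, against 11.5, 8.90 and 11.3 in ρ+ cells (log2 1.17, adjusted p = 0.00248). For both, no ρ0 array was as dim as any ρ+ array. Of 17 genes for gluconeogenesis, the glyoxylate cycle and growth on 2-carbon compounds, 2 (11.8%, against 5.00% of all genes) were called higher. The list's median was 0.04, against 0.13 for all genes. This count of 2 was 0 after quantile normalization and 0 to 3 with 1 array left out. They were PCK1, for phosphoenolpyruvate carboxykinase, by 1.04 and YAT2, a carnitine acetyltransferase gene, by 0.81. PCK1 lost its call without ρ0 replicate 1 or 3 or ρ+ replicate 2 or 3 (adjusted p from 0.0514 to 0.106), and YAT2 without ρ+ replicate 2 (adjusted p = 0.0597).

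General stress genes were represented by 2 called members of 20 (10%, against 5.00% of all genes called higher). Their median was 0.28, against 0.13 for all genes. HSP12, whose small protein protects membranes under stress, gave 1158, 1005 and 1889.7 in ρ0 cells, against 244, 303 and 258 in ρ+ cells. It was 4.84-fold higher (log2 2.28 ± 0.25 SE, adjusted p = 4.4e-05), without overlap. DDR2, a gene known for induction by many stresses, gave 980.2, 1402 and 1303 in ρ0 cells, against 464, 437 and 555 in ρ+ cells (log2 1.33, adjusted p = 0.000725). None of 18 cytosolic chaperone genes and none of 29 genes of oxidative stress defence was called by limma. At an unadjusted p under 0.05 there were 1 (5.56%) and 7 (24.1%), against 24% of all genes.

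A few genes of amino acid and vitamin metabolism were higher. Of 16 tested genes of serine, glycine and threonine metabolism, 3 (18.8%, against 5.00% of all genes) were called higher and none lower. However, only 7 had a positive difference and the median was −0.09, against 0.13 for all genes. GCV1 and GCV2 encode subunits of the mitochondrial glycine decarboxylase. GCV1 gave 264, 339.7 and 361 in ρ0 cells, against 113, 124 and 116 in ρ+ cells, and GCV2 gave 154, 124 and 123 in ρ0 cells, against 49.7, 60.5 and 52.8 in ρ+ cells. The ρ0 arrays were well above the ρ+ arrays for both (log2 1.43 and 1.27, adjusted p = 0.000362 and 0.000323), and SER3, for the start of serine synthesis, was higher by 1.08 (adjusted p = 0.00602). Of 16 tested genes of thiamine and other vitamins, 3 (18.8%, against 5.00% of all genes) were called higher. Their median was 0.13, as for all genes. SNO1 and SNZ1, adjacent genes of vitamin B6 synthesis, were higher by 2.15 and 1.64. SNO1 gave 64.9, 74.3 and 69.5 in ρ0 cells, against 13.2, 14.9 and 15.4 in ρ+ cells (adjusted p = 2.0e-06), and the groups were far apart. The thiamine gene THI4 was higher by 0.97 (adjusted p = 0.00237).

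Nitrogen metabolism included further higher genes. Of 17 tested genes under nitrogen catabolite repression, all had a positive difference and 5 (29.4%, against 5.00% of all genes) were called higher. The median was 0.48, against 0.13 for all genes. With 1 array left out 0 to 4 were called, 4 without ρ0 replicate 2, and under quantile normalization or median centring 1. CAR1, for arginase, gave 329, 433 and 223 in ρ0 cells, against 151, 122 and 98.7 in ρ+ cells (log2 1.37, adjusted p = 0.0113), and its call was lost without ρ+ replicate 3 (adjusted p = 0.0634). The ammonium permease gene MEP2 and the general amino acid permease gene GAP1 were higher by 0.75 and 0.77, and were not called without some single arrays (highest adjusted p = 0.0931 and 0.178). GDH2, for the glutamate dehydrogenase that releases ammonium, was higher by 0.93 (adjusted p = 0.00718). Of 8 tested genes of arginine synthesis, 1 was higher (12.5%, against 5.00% of all genes) and 1 lower (12.5%, against 1.45%). In that list 6 had a positive difference, and the median was 0.28. The lower one was ARG3, for ornithine carbamoyltransferase, at 17.7, 15.1 and 19.4 in ρ0 cells, against 47.5, 36.1 and 40.6 in ρ+ cells. ARG3 lies on chromosome X, and its log2 difference of −1.18 was −1.09 without ρ0 replicate 2 (adjusted p = 0.00684 and 0.0217).

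Of 23 tested genes of sulfate assimilation and methionine, 4 (17.4%, against 1.45% of all genes) were lower and 1 (4.35%, against 5.00%) was higher. The median was −0.265, against 0.13 for all genes. The higher one was STR2 on chromosome X, for cystathionine gamma-synthase, with 0.98 and, without ρ0 replicate 2, 1.12 (adjusted p = 0.00568 and 0.00325). The 4 lower genes were MET3, MMP1, CYS3 and SAM2, and with 1 array left out 0 to 4 members were called lower, and 1 with the poly-A controls. MMP1 and SAM2 lost their calls without some single arrays (highest adjusted p = 0.113 and 0.144). MET3, for ATP sulfurylase on chromosome X, gave 42.4, 15.3 and 46.3 in ρ0 cells, against 106, 77.0 and 63.5 in ρ+ cells. Its log2 difference of −1.32 (adjusted p = 0.0385) was −0.84 without ρ0 replicate 2, and it was not called without ρ0 replicate 2 or ρ+ replicate 1, 2 or 3 (adjusted p from 0.0676 to 0.138). CYS3 on chromosome I changed likewise, with −0.85 and an adjusted p of 0.0243, against −0.70 and 0.0676 without that array. CYS3 was not called without ρ0 replicate 2 or ρ+ replicate 2 or 3 (adjusted p from 0.0676 to 0.107). SAM3, the S-adenosylmethionine permease gene, on a shared probe set, was lower by −1.12 (adjusted p = 0.0139), but not past the threshold without ρ0 replicate 1 or ρ+ replicate 3 (adjusted p from 0.0603 to 0.0676).

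Of 15 tested genes of purine synthesis, 3 (20.0%, against 1.45% of all genes) were called lower and none higher. The median was −0.10, against 0.13 for all genes. With the poly-A controls 1 was called, and 1 to 3 with 1 array left out. The 3 were IMD2, IMD3 and IMD4, for IMP dehydrogenase, the entry to guanine nucleotide synthesis. IMD4 gave 547, 365 and 482 in ρ0 cells, against 909.8, 996 and 1004 in ρ+ cells (log2 −1.08, adjusted p = 0.00796), with a wide gap between the groups. IMD2 and IMD3, on shared probe sets, had −1.17 and −0.77 (adjusted p = 0.0243 and 0.0246). The call of IMD2 was lost without ρ0 replicate 1 or 3 or ρ+ replicate 1, 2 or 3 (adjusted p from 0.0589 to 0.0908), and that of IMD3 without ρ0 replicate 1 or 3 or ρ+ replicate 1, 2 or 3 (adjusted p from 0.0533 to 0.108). URA5, the single called gene of 8 in pyrimidine synthesis (12.5%, against 1.45% of all genes called lower), was lower by −0.72 (adjusted p = 0.00937). With the poly-A controls neither IMD4 nor URA5 was called (adjusted p = 0.0684 and 0.163). INO1, for inositol phosphate synthase on chromosome X, was the single called gene of 16 in phospholipid synthesis (6.25%, against 1.45% of all genes called lower). It gave 114, 66.8 and 65.3 in ρ0 cells, against 191, 195 and 203 in ρ+ cells. The difference was −1.29 with and −1.17 without ρ0 replicate 2 (adjusted p = 0.0113 and 0.0328).

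Zinc uptake showed the largest decrease of a nuclear gene. ZRT1, the high-affinity zinc transporter gene, gave 162, 199 and 119 in ρ0 cells, against 1599.5, 1527 and 1673 in ρ+ cells. The groups were far apart, 10.1-fold (log2 −3.34 ± 0.18 SE, adjusted p = 2.0e-08), and the highest adjusted p over 18 alternatives was 1.3e-05. ZRT2, for the low-affinity transporter, gave 189, 172 and 202 in ρ0 cells, against 395, 438 and 463 in ρ+ cells (log2 −1.20, adjusted p = 0.00140). The other 7 tested genes of the zinc regulon were not called by limma, so that 22.2% of the list was called lower, against 1.45% of all genes. Of all 9, ZRT1 and ZRT2 included, 3 had an unadjusted p under 0.05 (33.3%, against 24% of all genes). The list's median was −0.36, against 0.13 for all genes.

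Some genes of pheromone response and mating were lower. Of 18 tested members, 4 were called lower (22.2%, against 1.45% of all genes) and 1 higher (5.56%, against 5.00%). The median was −0.25, against 0.13 for all genes. With 1 array left out 2 to 4 were called lower, and with the poly-A controls 2. FIG1, a gene induced by pheromone, gave 3.94, 3.72 and 3.37 in ρ0 cells, against 37.7, 31.7 and 25.1 in ρ+ cells. It was below the detection level on every ρ0 array and above it on every ρ+ array, at least 5.34-fold lower (adjusted p = 1.9e-05). AGA1, the anchor subunit gene of the a-agglutinin, gave 90.6, 105 and 77.7 in ρ0 cells, against 357, 332 and 259 in ρ+ cells (log2 −1.78, adjusted p = 1.2e-05), and AGA2, for its binding subunit, and BAR1, for the protease that degrades alpha factor, were lower by −0.82 and −0.71. AGA2 lost its call without ρ+ replicate 2 or 3 (adjusted p from 0.0524 to 0.0594), and BAR1 without ρ0 replicate 3 or ρ+ replicate 1 or 2 (adjusted p from 0.0720 to 0.101). FAR1 is not one of these 18 but of 27 cell cycle genes, with 1 higher and 1 lower (3.70% each, against 5.00% and 1.45% of all genes). It encodes the inhibitor that arrests the cell cycle in response to pheromone. It gave 72.8, 42.0 and 77.1 in ρ0 cells, against 153, 152 and 122 in ρ+ cells; it lies on chromosome X, and its difference was −1.18 with and −0.91 without ρ0 replicate 2 (adjusted p = 0.00718 and 0.0205).

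The mating type of the strains is not in the labels. The a-factor genes MFA1, on a shared probe set, and MFA2 were above the detection level on all 6 arrays, at 4463 ± 766 in ρ0 cells and 2923 ± 408 in ρ+ cells for MFA1 and 3414 ± 345 in ρ0 cells and 2963 ± 179 in ρ+ cells for MFA2 (SD, n = 3 each). The alpha-factor receptor gene STE2 of a cells gave 223 in ρ0 cells and 298 in ρ+ cells, and the a-factor receptor gene STE3 of alpha cells 9.46 and 6.24. STE3 exceeded the detection level on all ρ0 arrays and on 2 of 3 ρ+ arrays. None of these 4 genes passed the test. HO, the mating-type endonuclease gene, was higher by 0.86, with 113, 121 and 103 in ρ0 cells, against 60.3, 61.3 and 62.0 in ρ+ cells (adjusted p = 0.00819). Among the 7 tested genes that commonly serve as auxotrophic markers, 1 was called (14.3%, against 5.00% of all genes called higher). It was LYS2 of lysine synthesis, higher at 223, 208 and 151 in ρ0 cells, against 108, 90.9 and 57.3 in ρ+ cells (log2 1.20, adjusted p = 0.0141). The LYS2 call did not hold without ρ0 replicate 1 or ρ+ replicate 3 (adjusted p from 0.0585 to 0.0796).

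Cytosolic ribosomal protein genes were called lower in 4 of 80 cases (5%, against 1.45% of all genes) and never higher. Their median was −0.22, against 0.13 for all genes. The 4 were RPS7B, RPL36B, RPL6A and RPS14B, with log2 differences of −0.66, −0.66, −0.61 and −0.60. Each lost its call without some single array (highest adjusted p = 0.0695, 0.119, 0.109 and 0.0859). With 1 array left out 0 to 5 were called, 2 without ρ0 replicate 2, and the number was 10 after median centring and 0 with the poly-A controls. The median stayed below that of all genes under the 3 scalings, at −0.16 after quantile normalization, −0.39 after median centring and −0.03 with the poly-A controls. RPS14B on chromosome X was called without ρ0 replicate 2 (adjusted p = 0.0325) but not after removal of the trend along the probe set numbers (adjusted p = 0.348). Of 110 ribosome biogenesis genes, 1 was higher (0.909%, against 5.00% of all genes) and 1 lower (0.909%, against 1.45%). The lower one was the rRNA methyltransferase gene NOP1 (−0.69, adjusted p = 0.0109), a call lost without ρ+ replicate 2 (adjusted p = 0.0561).

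Some of the largest differences belonged to genes that are not members of the lists described above. Whether such genes share regulation with a list was not tested. ECM13, YTP1, LAF1 and YGR035C were higher by 2.67, 2.39, 2.37 and 2.32. LAF1 gave 249, 247 and 235 in ρ0 cells, against 49.1, 45.6 and 43.3 in ρ+ cells (adjusted p = 3.3e-06), and ECM13 gave 101, 60.2 and 108 in ρ0 cells, against 10.7, 12.3 and 14.3 in ρ+ cells (adjusted p = 3.6e-06). In each of these 4 genes all ρ0 arrays were above all ρ+ arrays, and the call held in all 18 alternatives. On the lower side, TEF4, for a subunit of translation elongation factor 1, gave 187, 96.6 and 52.8 in ρ0 cells, against 351, 267 and 220.0 in ρ+ cells (log2 −1.46, adjusted p = 0.0202), a call lost without ρ0 replicate 3 or ρ+ replicate 1 or 2 (adjusted p from 0.0511 to 0.0868). The dim gene ADH7, for an alcohol dehydrogenase, had −1.47. GIT1, for glycerophosphoinositol uptake, was below the detection level on all ρ0 arrays and on 2 of 3 ρ+ arrays, so no fold is given, and its call was lost with signals floored at the detection level (adjusted p = 0.427). It was not called either without ρ0 replicate 1 or 2 or ρ+ replicate 1, 2 or 3 (adjusted p from 0.0607 to 0.129), and ADH7 not without ρ+ replicate 1 or 2 (adjusted p from 0.0875 to 0.0929).

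The same contrast in medium without glucose was used to ask which of these differences changed with the medium. There, 1102 genes (20.6%) were higher and 504 (9.40%) lower in ρ0 cells, and the median log2 difference of all genes was 0.21. Of the 268 genes higher in glucose, 135 (50.4%) were also higher without it, which is 12.3% of the 1102, and 22 were lower there. Of the 78 genes lower in glucose, 34 (43.6%) were also lower without it, 6.75% of the 504, and 2 were higher there. The difference between media, glucose minus no glucose, was itself called for 287 genes (5.35%) with a positive and 84 (1.57%) with a negative value. Among the 346 genes called in glucose it was called for 65.

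Drug resistance and iron regulon genes were called in the absence of glucose too, as were the largest differences among zinc and oxygen genes. Without glucose, 12 of 14 drug resistance genes and 18 of 24 iron regulon genes were called higher, against 20.6% of all genes. There, 1 iron regulon gene was lower, against 9.40% of all genes. On the log2 scale RSB1 differed by 3.64, FIT2 by 2.58, ZRT1 by −3.50 and ANB1 by −2.14 without glucose. For these 4 genes the difference between media did not pass (adjusted p = 0.891, 0.453, 0.756 and 0.764). The low-affinity zinc transporter gene ZRT2 did differ, with −0.21 without glucose and a difference between media of −0.98 ± 0.27 SE (adjusted p = 0.0364). GRE2 was higher by more without glucose, 1.97, than in glucose (adjusted p of the difference = 0.0268).

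Opposite directions were seen for stress and carbon genes. HSP12, higher in glucose, gave 1824 ± 588 in ρ0 cells and 2901 ± 464 in ρ+ cells without glucose (SD, n = 3 each), a log2 difference of −0.71, and the media differed by 2.99 ± 0.35 SE (adjusted p = 8.2e-05). DDR2, PCK1 and YAT2 likewise had −0.70, −0.85 and −0.59 without glucose (adjusted p of the difference = 0.000244, 0.00367 and 0.00209). The ammonium permease gene MEP2 had −2.89 without glucose against 0.75 in glucose (adjusted p of the difference = 5.9e-07). Respiratory chain genes were called lower in 17 of 27 cases without glucose, against 9.40% of all genes. None of them was called lower in glucose, against 1.45% of all genes. PET100, RSM28, MRPL44 and TIM9, higher in glucose, had differences near 0 without it (−0.00357, −0.08, −0.07 and −0.22), and the media differed for each (adjusted p = 0.0323, 0.0204, 0.0240 and 0.0116).

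**Figure D5:**
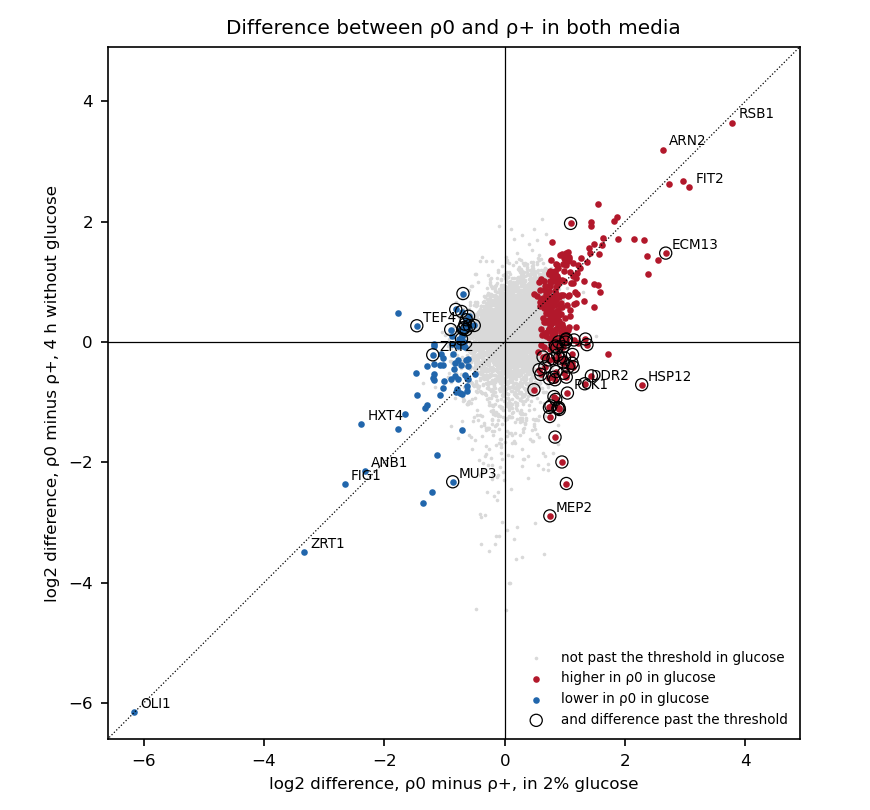
Log2 difference between ρ0 and ρ+ cells without glucose (vertical axis) against that in 2% glucose (horizontal axis), 1 point per tested gene; red and blue points were called higher and lower in glucose, and circles mark the 65 of them whose difference between media was called. The dotted diagonal marks equal differences: RSB1 and ZRT1 lie near it, and HSP12, DDR2 and MEP2 lie in the lower right, higher in glucose and lower without it.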

How the data were processed

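RNA from 12 cultures was measured on 1-colour Affymetrix yeast arrays. Per the labels' protocols, total RNA was selected for poly(A)+ RNA, turned into double-stranded cDNA and from it into cRNA with biotin labels. The authors deposited 1 linear intensity per probe set and array, from MAS5 (version and target not stated), per the submitters' processing notes. With 2% of probe sets trimmed at each end, every array had a mean of 99.95 to 99.96. Of 9335 probe sets, 60 were controls, 6504 had 1 listed gene, 328 several and 2503 none here; all 6504 matched RefSeq assembly R64 and gave 5656 genes, each read by its brightest probe set. Shared probe sets read 216 tested genes. The pseudocount of 1.498 and the detection level of 5.822 are the 10th and 25th percentiles of all intensities; 94.9% of intensities of 13 foreign or antisense control probe sets lay at or below that level.

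With limma 3.58.1 (R 4.3.3), the 12 arrays were fitted by a model with a mean for each of the 4 groups (lmFit, contrasts.fit, eBayes with trend; 8 residual degrees of freedom), and two-sided p-values were adjusted by the Benjamini-Hochberg method over 5361 genes. On simulated data, 71% of 2-fold and 98% of 4-fold changes were recovered for ρ0 against ρ+ in glucose, with 3 false calls among 5161 unchanged genes. The simulated noise was normal, with each gene's own spread, and independent between genes and arrays. It held no deviation shared by many genes of an array, such as that of ρ0 replicate 2, so these rates do not cover such deviations. The labels call replicates biological; deviations of same-numbered ρ0 and ρ+ arrays correlated at 0.19, −0.11 and 0.34, so numbers were not used as pairs. The members and the 65 gene lists were chosen with earlier results of these data known. Named genes are the 12 largest non-overlapping called differences each way, the top 4 called members each way of a list, members of 6 fixed lists and mtDNA genes, in part summarised. Lists are described by counts and medians, with no set test. Promoter sequences were not analysed here. The 18 alternatives were 6 omissions of an array, 11 other planned settings, and removal of the trend over probe set number, added after the data were seen. Python 3.11.15 and pandas 2.3.3 made the summaries.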

Additional observations from a re-analysis of the deposited data

Results flagged for a closer look

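For the genes named above or below, the ρ0 effect was compared between media, and the difference, glucose minus no glucose, passed limma's test over all genes for 23 of them. Among the positive values were those of MEP2 (3.64, adjusted p = 5.9e-07), HSP12 (2.99, adjusted p = 8.2e-05), DDR2 (2.02, adjusted p = 0.000244), PCK1 (1.89, adjusted p = 0.00367), GAP1 (1.83, adjusted p = 0.00162) and YAT2 (1.40, adjusted p = 0.00209). All 6 were higher in ρ0 cells in glucose and lower without it.

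MUP3, a low-affinity methionine permease gene, was lower in both media, by −0.86 in glucose and −2.32 without, a difference of 1.46 (adjusted p = 0.00848). The MUP3 call in glucose (adjusted p = 0.0280) was lost without some single arrays (highest adjusted p = 0.111). ECM13 was higher in both, by 2.67 and 1.48, a difference of 1.20 (adjusted p = 0.0367), and GRE2 was higher by less in glucose, with −0.88 (adjusted p = 0.0268). CAR1, TIM9, RSM28, PET100 and MRPL44 were called higher in glucose only, and their differences between media were 1.41, 1.10, 1.05, 1.02 and 0.91 (adjusted p = 0.0491, 0.0116, 0.0204, 0.0323 and 0.0240). Among small RNA genes, SNR11 and SNR7-L, the latter on a shared probe set, had differences of 1.32 and 0.98 (adjusted p = 0.0129 and 0.0469).

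The other negative differences belonged to genes lower in ρ0 cells in glucose. TEF4 had −1.73 (adjusted p = 0.0441), with −1.46 in glucose and 0.27 without. YHM2 had −1.22 (adjusted p = 0.00705), and ZRT2 had −0.98 (adjusted p = 0.0364). RPS7B, NOP1, SAM2 and URA5 had −0.95, −0.90, −0.86 and −0.77 (adjusted p = 0.00905, 0.0130, 0.0364 and 0.0376).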

How the results depend on the processing

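Across 18 alternatives, 60 of the 109 called genes named in the text kept their call in all of them. Omitting 1 of the 6 arrays gave 116 to 267 higher genes and 27 to 82 lower genes, and 230 to 461 genes with a called difference between media, against 268, 78 and 371 as reported; between 15 and 35 of the 109 lost their call, most without ρ+ replicate 2. Median centring gave 118 higher and 160 lower genes, quantile normalization 138 and 104, and scaling to the poly-A controls 354 and 22, with 188 differences between media. Of the 109, these scalings ended 16, 18 and 20 calls, of genes that also lost the call without some array except IMD4, URA5 and SNR54 with the poly-A controls. Strain and replicate number as a random block, under the assumption, not stated in the labels, that the number marks the master culture, gave 632 differences between media, against 371, with 273 higher and 80 lower genes in glucose. The fit with the replicate number as a block gave 382 higher and 117 lower genes and 518 differences between media. Whether equal numbers pair the samples is not stated in the labels. Removal of the trend over probe set number gave 375 higher and 101 lower genes, including 262 of the 268 and 69 of the 78. The fit to the 6 arrays alone gave 228 and 55. The remaining settings (pseudocount, floor, filter, intensity trend, mean of probe sets) gave 252 to 300 higher and 71 to 84 lower genes. The sign turned for genes that were never called: CIT2 had −0.0664 and CIT1 −0.0256 after median centring (adjusted p = 0.916 and 0.959), and CIT1 lay between −0.0216 and 0.263 with 1 array left out. With 3 arrays per group and a median SE of 0.21, small differences cannot be told from 0, and signals below the detection level give a bound only.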

Other observations

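A few further genes were picked after their values were seen. FUS3, the gene of the mitogen-activated kinase of the pheromone pathway, was lower in ρ0 cells in glucose, with 23.5, 17.5 and 26.4 in ρ0 cells, against 51.5, 52.2 and 52.4 in ρ+ cells (log2 −1.18 ± 0.21 SE, adjusted p = 0.00347). The adjacent genes FCY21 and FCY22, which encode proteins similar to the purine and cytosine permease Fcy2, were lower by −1.20 and −1.30 (adjusted p = 0.000397 and 0.00132). FUR1, for uracil phosphoribosyltransferase, was lower by −1.03 (adjusted p = 0.00248). The calls of these 4 genes held in all 18 alternatives.

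Of 57 tested small RNA genes, 4 were higher and 2 were lower in ρ0 cells in glucose, with a median of −0.03. Of all genes, 5.00% were higher and 1.45% lower, with a median of 0.13. The higher ones were SNR7-L, on a shared probe set, SNR14, SNR11 and SNR6, by 1.02, 1.02, 0.97 and 0.94. SNR14 and SNR11 were not called without some single arrays. SNR44 gave 154, 122 and 133 in ρ0 cells, against 474, 367 and 455 in ρ+ cells (log2 −1.65, adjusted p = 1.7e-05), with all ρ0 arrays below all ρ+ arrays. It lies within the ribosomal protein gene RPS22B, which had a log2 difference of −0.27 (adjusted p = 0.363). SNR54 lies within IMD4, and both were lower, by −1.03 and −1.08 (adjusted p = 0.00706 and 0.00796; with the poly-A controls 0.0592 and 0.0684). These RNAs were read in poly(A)-selected RNA.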
